A study of Homo sapiens with 8 samples.

Results

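CpG-poor promoters of protein-coding genes were examined in the MBD-seq peak lists of 8 neuroblastoma (NB) cell lines. A promoter was taken as the stretch between -1500 and +1000 bp of the transcriptional start site (TSS) of the canonical transcript, on the autosomes of GRCh37. For each window the CpG ratio was computed as the number of CpG times the window length, divided by the product of the numbers of C and G. Windows with a ratio below 0.35 were called CpG-poor, which gave 4559 of 18973 promoters. The 4948 promoters with a ratio from 0.35 to below 0.6 are called intermediate, and the 9466 at 0.6 or above CpG-rich. The ratio is computed from the genome sequence and uses no peak.

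MBD-seq captures sheared DNA with the methyl-CpG-binding domain of MBD2 and sequences it, and a peak is a stretch in which captured fragments pile up. Of the lines, 4 carry an amplified *MYCN* gene (MNA: LAN-2, written LA-N-2 in the sample labels, N206, IMR-32 and CHP-902R) and 4 do not (*MYCN* single copy: SK-N-AS, SJNB-1, SH-SY5Y and CLB-GA). *MYCN* is the transcription factor gene whose amplification marks high-risk NB. No treatment is named for the sequenced DNA, and each is 1 cultured line measured in 1 sample, so the lines are the replicates of a group. Peaks within 1 Mb of *MYCN* covered 8.68 to 19.8% of the bases in the MNA lines and 1.87 to 4.76% in the *MYCN* single copy lines, with CHP-902R at 14.1%. The lists held 70816 to 112412 peaks per line without read counts. The depth behind each list was therefore not known here, since the study gives a range over the lines only, and a missing peak does not show that a promoter was unmethylated.

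Vertebrate CpG-rich promoters, known as CpG islands, are mostly free of DNA methylation and serve many widely expressed genes. CpG-poor promoters have lost most of their CpG during evolution, since methylated cytosine mutates readily to thymine, and many belong to genes used in few tissues. Their few CpG are commonly methylated in tissues that do not use the gene. Capture by MBD2 needs methylated CpG close together on a fragment, so this assay reads such promoters where their CpG cluster.

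The CpG-poor windows held a median of 28 CpG, against 90 in the intermediate and 145 in the CpG-rich windows. Their median GC content was 46.1%, against 53.4% and 56.9%. A stretch of 200 bp with a GC content of at least 50% and a CpG ratio of at least 0.6, here called CpG-dense, was present in 1372 (30.1%) of the CpG-poor windows, in 99.4% of the intermediate and in every CpG-rich window. A CpG-poor promoter was thus often poor over the window while holding a short dense stretch.

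Pieces of 6 of these promoters show this range. Capitals mark each CpG, and each piece is read 5′ to 3′ on the strand of the gene from the GRCh37 sequence. The first 3 lie under peaks of all 8 lines and belong to the promoters that rank highest by the number of lines and then by peak score. *KISS1* encodes kisspeptin, the ligand of a G protein-coupled receptor that controls puberty. *GPR182* is a G protein-coupled receptor of endothelium, and *RXFP4* a receptor of the relaxin family.

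The *KISS1* piece lies at chr1:204164619-204164838 on the minus strand, 781 to 1000 bp past the TSS in an intron, and is a TG repeat with 4 CpG. The *GPR182* piece (chr12:57389021-57389270, plus strand) and the *RXFP4* piece (chr1:155911782-155912081, plus strand) are coding sequence with 10 and 16 CpG.
KISS1: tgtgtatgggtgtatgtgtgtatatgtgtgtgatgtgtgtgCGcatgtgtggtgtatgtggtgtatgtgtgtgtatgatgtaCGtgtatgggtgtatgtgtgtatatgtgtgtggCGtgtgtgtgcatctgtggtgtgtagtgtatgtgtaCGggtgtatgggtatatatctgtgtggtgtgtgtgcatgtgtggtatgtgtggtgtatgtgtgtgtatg
GPR182: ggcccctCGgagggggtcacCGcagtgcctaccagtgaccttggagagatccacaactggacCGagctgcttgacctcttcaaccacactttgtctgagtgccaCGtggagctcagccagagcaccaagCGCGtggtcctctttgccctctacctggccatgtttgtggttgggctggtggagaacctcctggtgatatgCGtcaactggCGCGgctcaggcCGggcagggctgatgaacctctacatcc
RXFP4: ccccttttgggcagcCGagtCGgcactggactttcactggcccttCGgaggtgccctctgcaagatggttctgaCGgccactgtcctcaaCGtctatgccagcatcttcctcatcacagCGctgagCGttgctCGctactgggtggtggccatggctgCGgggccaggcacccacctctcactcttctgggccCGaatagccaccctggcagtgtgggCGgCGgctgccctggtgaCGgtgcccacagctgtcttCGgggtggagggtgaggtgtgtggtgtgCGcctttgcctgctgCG

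The *MIA* piece (chr19:41281448-41281677, plus strand) spans coding and intron sequence just past the TSS with 6 CpG, under a peak in each *MYCN* single copy line and in no MNA line. *MIA* encodes a secreted protein known from melanoma. The *GNG13* piece (chr16:850228-850527, minus strand) holds 28 CpG in an intron of a G protein subunit gene of taste and retinal cells. Its window had the largest number of CpG, 97, among the CpG-poor promoters without a peak in any line. The *LCE3A* piece (chr1:152595841-152596140, minus strand) holds 22 CpG upstream of a gene of the cornified envelope of skin, and its window had no peak in any line either.
MIA: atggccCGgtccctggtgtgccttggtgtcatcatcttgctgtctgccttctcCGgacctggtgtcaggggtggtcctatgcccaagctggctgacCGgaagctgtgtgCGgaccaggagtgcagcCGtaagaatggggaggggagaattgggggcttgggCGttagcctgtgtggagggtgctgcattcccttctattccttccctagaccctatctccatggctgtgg
GNG13: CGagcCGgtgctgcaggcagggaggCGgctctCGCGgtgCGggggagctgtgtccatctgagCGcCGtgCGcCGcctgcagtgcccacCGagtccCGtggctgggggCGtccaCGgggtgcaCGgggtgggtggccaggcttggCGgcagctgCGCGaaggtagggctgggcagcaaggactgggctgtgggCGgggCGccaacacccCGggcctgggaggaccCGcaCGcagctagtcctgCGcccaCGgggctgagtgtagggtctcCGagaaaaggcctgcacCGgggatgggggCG
LCE3A: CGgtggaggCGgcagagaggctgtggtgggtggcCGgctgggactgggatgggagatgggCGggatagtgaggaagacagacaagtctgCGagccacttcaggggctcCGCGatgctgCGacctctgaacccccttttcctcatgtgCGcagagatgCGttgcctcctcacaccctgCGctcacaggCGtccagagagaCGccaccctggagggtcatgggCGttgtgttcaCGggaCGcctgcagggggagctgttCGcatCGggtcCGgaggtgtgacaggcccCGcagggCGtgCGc

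CpG-poor promoters carried a peak less often than the other classes in each of the 8 lines. In the MNA lines a peak was present at 543 (11.9%) of them in LAN-2, at 500 (10.97%) in N206, at 629 (13.8%) in IMR-32 and at 632 (13.9%) in CHP-902R. In the *MYCN* single copy lines SK-N-AS had 512 (11.2%), SJNB-1 515 (11.3%), SH-SY5Y 635 (13.9%) and CLB-GA 481 (10.6%). The mean share was 12.2% ± 1.43 (SD, n = 8 lines), against 19.9% ± 3.06 of the intermediate and 17.2% ± 2.98 of the CpG-rich promoters. The mean difference of the CpG-poor share was -5.05 percentage points from the CpG-rich and -7.73 points from the intermediate share (exact sign-flip permutation test over the lines, two-sided, p = 0.0078 for both, the smallest p that 8 lines allow, Benjamini-Hochberg adjusted p = 0.0123 over 11 tests). With the window narrowed to 500 bp on each side of the TSS, the mean difference from CpG-rich promoters was 1.42 points in the other direction (exact permutation p = 0.0859), so the order of these classes depended on the length of the window.

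**Figure D1:**
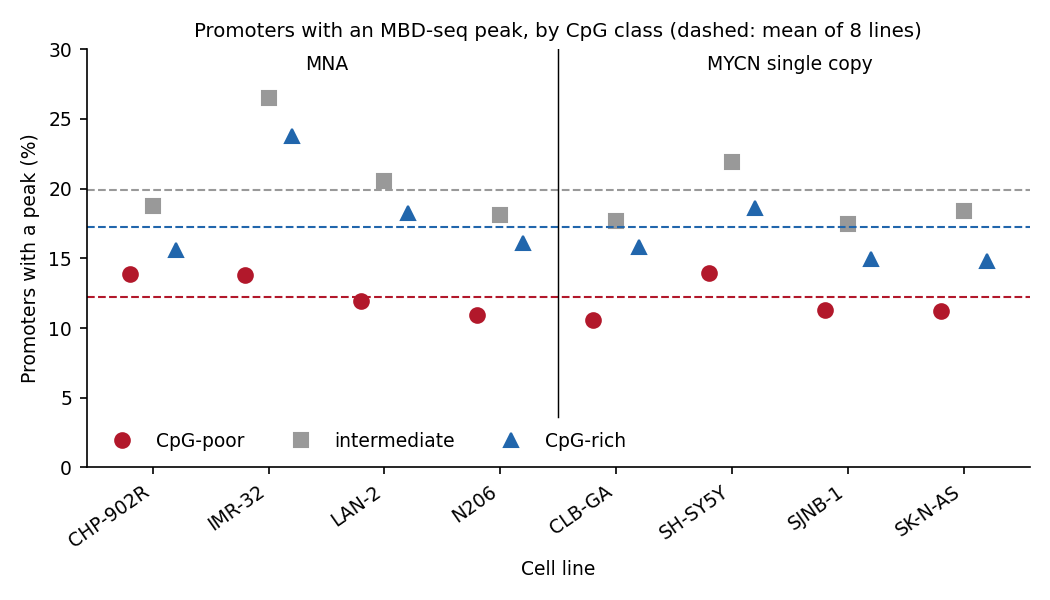
Share of promoters with a peak (y axis, %) in each line (x axis) for the 3 CpG classes, with dashed lines at the means over 8 lines. The CpG-poor points lie between 10.6 and 13.9%, below both other classes in each line, and the spread of the CpG-rich points is set mainly by IMR-32 at 23.7%.

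Peaks of CpG-poor promoters, like those of intermediate ones, gathered at and just past the TSS, whereas CpG-rich promoters had fewest there. In CpG-poor promoters the share of bases under a peak was 1.48% at -800 to -701 bp, 4.41% in the 100 bp that start at +100 bp and 3.22% at +900 to +999 bp. In CpG-rich promoters it was 6.09% at -1200 to -1101 bp and lowest, at 1.78%, in the 100 bp before the TSS. Within 250 bp of the TSS, cover of CpG-poor promoters was 3.59% ± 0.591, against 2.34% ± 0.404 in the rest of the window, and it was higher at the TSS in 8 of 8 lines (difference 1.26 percentage points, exact permutation p = 0.0078, adjusted p = 0.0123). Intermediate promoters had 5.88% ± 1.72 near the TSS and 4.73% ± 1.11 in the rest, also higher at the TSS in each line. In CpG-rich promoters the cover was 1.92% ± 0.867 near the TSS and 4.20% ± 1.14 in the rest. The contrast of CpG-poor and CpG-rich promoters in this difference was 3.53 points and had the same sign in 8 of 8 lines (exact permutation p = 0.0078, adjusted p = 0.0123). The CpG number per 100 bp of CpG-poor promoters was itself 1.097 at -800 to -701 bp and 1.99 in the first 100 bp past the TSS.

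**Figure D2:**
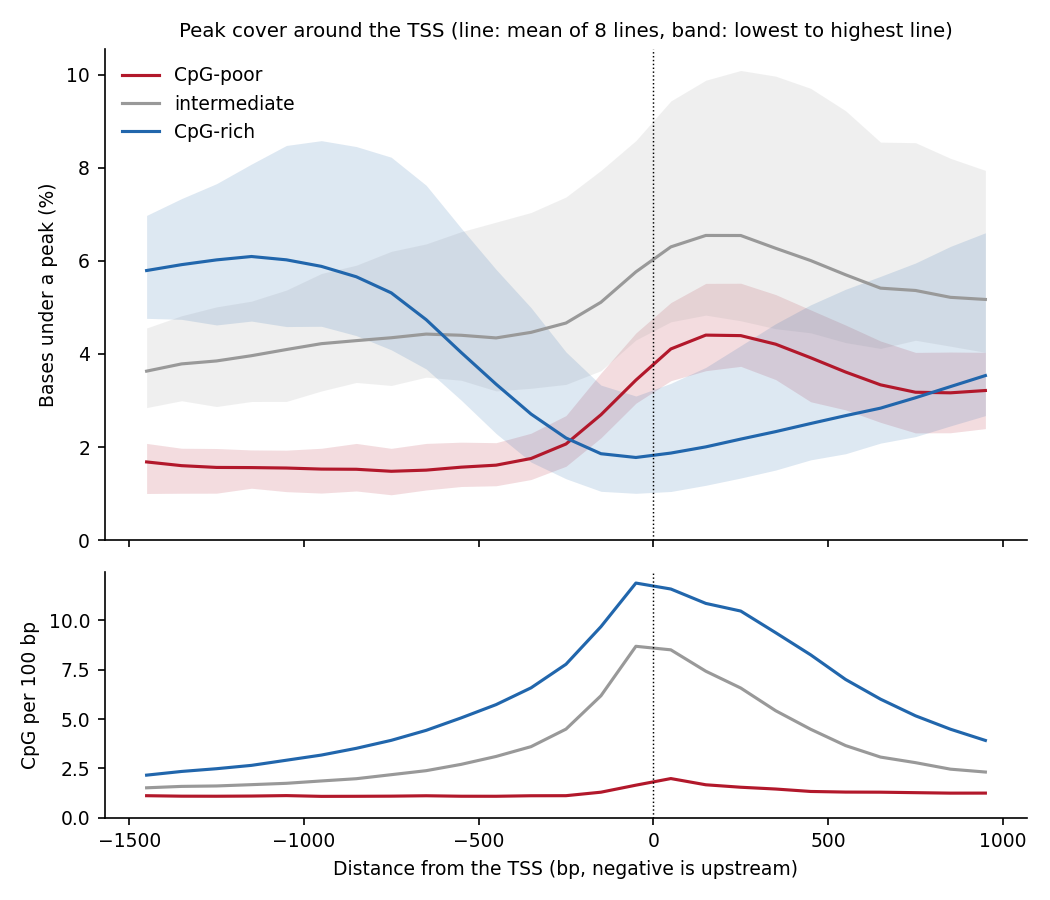
Share of bases under a peak (upper panel, %) and CpG per 100 bp (lower panel) against the distance from the TSS in bp, for the 3 classes; lines are means of 8 lines and bands run from the lowest to the highest line. Cover of CpG-poor promoters reaches 4.41% just past the TSS, where the CpG-rich curve lies near its minimum of 1.78%.

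Bases under a peak in CpG-poor promoters held 3.08 ± 0.187 CpG per 100 bp, against 1.22 ± 0.00657 for bases outside peaks (higher in 8 of 8 lines, difference 1.86, exact permutation p = 0.0078, adjusted p = 0.0123). The same difference was 1.37 in intermediate promoters, and in CpG-rich promoters it was -0.531, with covered bases poorer in CpG in each line. CpG-poor promoters with a CpG-dense stretch carried a peak in 21.8% of cases on average and those without in 8.08% (difference 13.7 ± 1.98 percentage points, 8 of 8 lines, exact permutation p = 0.0078, adjusted p = 0.0123).

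Among the CpG-poor promoters themselves the share with a peak followed the number of CpG. In 5 groups of equal size by CpG number it was 0.795% ± 0.388 at 1 to 16 CpG, 4.71% ± 1.55 at 16 to 24, 11.6% ± 2.00 at 24 to 33, 19.0% ± 3.41 at 33 to 46 and 24.9% ± 2.77 at 46 to 98. The highest group exceeded the lowest by 24.1 percentage points, in 8 of 8 lines (exact permutation p = 0.0078, adjusted p = 0.0123). By the CpG ratio, the share was 2.01% ± 0.890 below 0.15 and 21.6% ± 2.46 from 0.3 to below 0.35. Beyond the limit of 0.35 it was 23.7% ± 2.49 up to 0.4 and 21.7% ± 3.31 up to 0.45, so the limit does not mark a step. The promoters nearest the limit were *TRIOBP* (0 lines with a peak), *PRSS50* (5 lines) and *CKMT2* (4 lines) just below it, and *GIMAP8* (3 lines), *KRTAP2-3* (0 lines) and *MYF6* (6 lines) just above it.

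**Figure D3:**
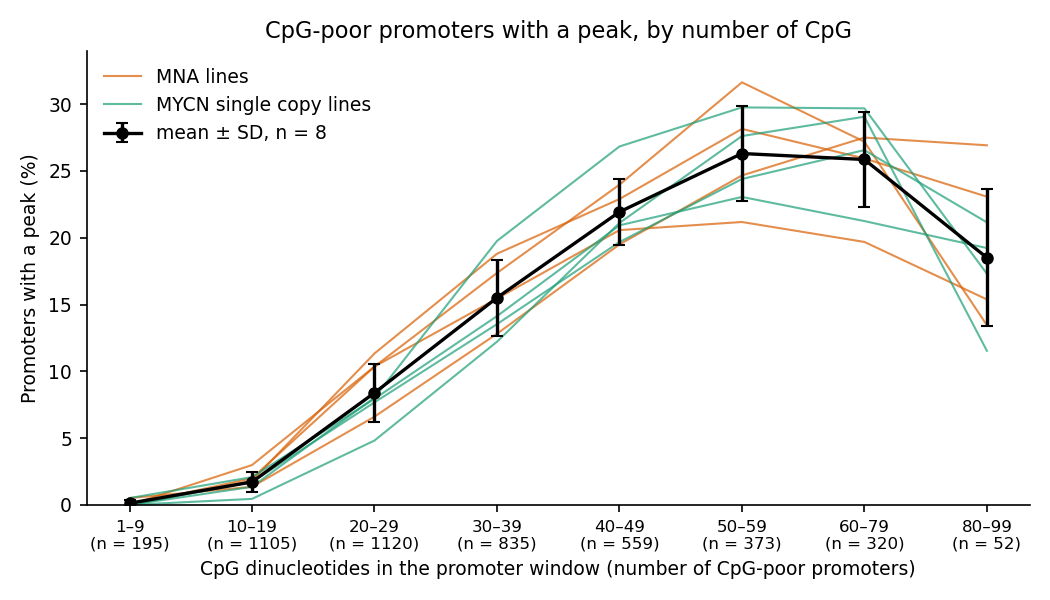
Share of CpG-poor promoters with a peak (y axis, %) by the number of CpG in the window (x axis, with the number of promoters); thin lines are single lines and black points the mean ± SD of 8 lines. The mean climbs from 0.128% at 1 to 9 CpG to 26.3% at 50 to 59 CpG, and the 52 promoters with 80 to 99 CpG lie at 18.5%.

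The classes could be set side by side at an equal number of CpG in 2 ranges. With 60 to 79 CpG in the window, a peak was present at 25.9% ± 3.57 of 320 CpG-poor, 18.4% ± 3.08 of 1131 intermediate and 11.7% ± 1.45 of 119 CpG-rich promoters. The lines spanned 19.7 to 29.7% for CpG-poor and 9.24 to 13.4% for CpG-rich promoters, without overlap, whereas the intermediate range of 14.3 to 23.6% overlapped the CpG-poor one. With 80 to 99 CpG the shares were 18.5% (lines 11.5 to 26.9%) of 52 CpG-poor, 19.3% of 1492 intermediate and 14.98% (11.8 to 19.8%) of 756 CpG-rich promoters. The ranges overlapped there, and the CpG-poor share was below the CpG-rich one in IMR-32, LAN-2 and CLB-GA. At an equal number of CpG, the CpG ratio differs between windows only through their numbers of C and G. Class and GC content therefore cannot be told apart in these ranges. These comparisons were made after the values were seen and were not tested.

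Cover differed between parts of the gene. Coding exons made up 7.44% of the CpG-poor windows, and 8.21% ± 1.13 of their bases lay under a peak, with 2.21 CpG per 100 bp. Cover was 4.07% ± 0.719 in untranslated exon sequence, 2.48% ± 0.546 in introns and 1.81% ± 0.317 upstream of the TSS, and introns and upstream sequence both held 1.15 CpG per 100 bp. Among bases with 8 to 9 CpG in the 200 bp around them, cover was 23.5% (lines 19.2 to 27.9%) in coding exons, 12.3% (10.2 to 15.4%) in introns and 9.07% (6.56 to 10.6%) upstream. The ranges of coding exons and introns did not overlap there, nor at 6 to 7 or 10 to 11 CpG, but they overlapped at 5 CpG or fewer. At the same 8 to 9 CpG, cover within 250 bp of the TSS was 12.9% (10.4 to 15.9%) in CpG-poor and 2.87% (1.67 to 5.23%) in CpG-rich promoters, while more than 250 bp upstream it was 8.58% ± 1.53 and 9.17% ± 1.77. Intermediate promoters lay at 7.42% (5.17 to 11.3%) near the TSS, overlapping the CpG-poor range, and at 8.93% ± 1.91 upstream. These values carry no test, and the part of read mappability in them was not tested.

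**Figure D4:**
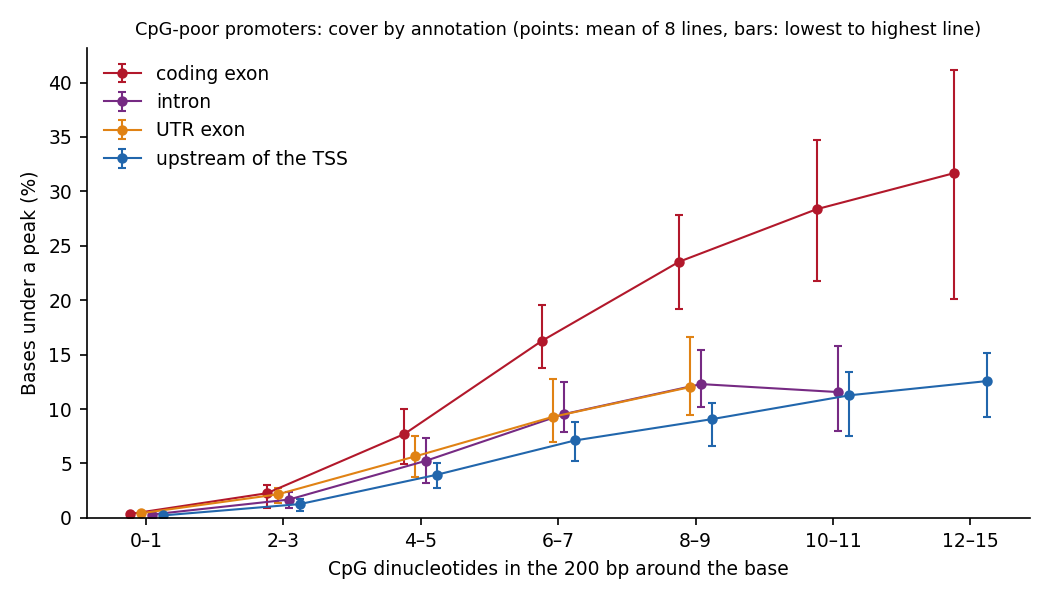
Share of bases of CpG-poor promoters under a peak (y axis, %) by the number of CpG in the 200 bp around the base (x axis), for coding exons, untranslated exons, introns and sequence upstream of the TSS; points are means of 8 lines and bars run from the lowest to the highest line. At 8 to 9 CpG the coding exons lie at 23.5% and the upstream sequence at 9.07%.

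Genes with a single exon place coding sequence next to the TSS. All 484 CpG-poor promoters of such genes carried a peak in 11.2% ± 2.07 of cases, against 12.3% ± 1.47 of the 4075 genes with 2 or more exons. With the olfactory receptors left out of both, the shares were 16.5% ± 2.62 of 287 and 12.9% ± 1.54 of 3882, with overlapping ranges over the lines. In what follows the olfactory receptors are left out. With 1 to 19 CpG in the window the shares were 2.06% and 1.71%, and with 20 to 29 CpG they were 9.56% (lines 5.88 to 15.3%) and 8.85% (5.13 to 11.4%). With 30 to 39 CpG they were 25.8% (14.9 to 38.3%, 47 promoters) and 15.3% (12.4 to 20.2%, 756 promoters), again with overlap. The ranges were apart at 40 to 59 CpG alone, with 36.1% (28.3 to 39.1%, 46 promoters) and 22.9% (20.3 to 27.3%, 876 promoters). No test was made, since the split was chosen after the peaks of the leading genes were seen.

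Over the 8 lines, 1822 CpG-poor promoters (39.96%) had a peak in at least 1 line, against a background of 49.9% of all 18973 promoters. A peak in at least 2 lines was present at 1072 (23.5%, background 31.7%) and in at least 4 lines at 395 (8.66%, background 13.5%). Of the CpG-poor promoters, 750 (16.5%) had a peak in a single line and 2737 (60.04%) in none. A peak in a single line was present at 18.5% of intermediate and 19.1% of CpG-rich promoters, and in none at 44.7% and 48.04%. Between 59 (CLB-GA) and 129 (CHP-902R) CpG-poor promoters had a peak in that line alone. These made up 12.3 to 20.4% of the CpG-poor promoters with a peak in the line. The range was 7.42 to 16.9% for intermediate and 9.505 to 22.7% for CpG-rich promoters. In each line but IMR-32 the CpG-poor share was above both other classes. For pairs of lines, the CpG-poor promoters shared made up 0.181 to 0.290 of those with a peak in either line. The mean was 0.230 within and 0.235 between the *MYCN* groups.

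A peak in all 8 lines was present at 17 CpG-poor promoters (0.373%, background 0.991%). Of these, 8 belonged to single-exon genes, which make up 10.6% of all CpG-poor promoters. They belong to different families. *CCIN*, *TSSK1B* and *ACTL7A* act in sperm, *CTCFL* encodes the testis paralog of CTCF, *RXFP4*, *GPR182* and the olfactory receptor *OR13J1* are receptors, *AIPL1* is a photoreceptor chaperone, and *HAL*, *SELENBP1* and *PLA2G4F* encode enzymes. *SLC22A8* encodes a renal organic anion transporter, *MSGN1* a transcription factor of the embryonic mesoderm, *TSPAN1* a tetraspanin and *ACTBL2* an actin-like protein, and *KISS1* and *FAM187A* complete the set. The number depends on the rule: 10 remained with the peak midpoint required inside the window, and 9 with the window ending 500 bp past the TSS.

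The score of a peak is minus 10 times log10 of its MACS p-value, and its percentile was taken within the list of each line. *KISS1* (chromosome 1, 204159469 to 204165619) had scores of 409, 385, 156 and 145 in LAN-2, N206, IMR-32 and CHP-902R for the peak past the TSS. In SK-N-AS, SJNB-1, SH-SY5Y and CLB-GA the scores were 191, 208, 145 and 58.03. The LAN-2 and N206 peaks both stood at percentile 99.9 of their lists, and CLB-GA, at 19.0, was the lowest line for this peak. CLB-GA had a stronger peak elsewhere in the window, with a score of 106. Over the strongest peak of each line, the lowest percentile was 86.6. The peaks past the TSS held only 1.42 to 1.66 CpG per 100 bp, fewer than most peaks at CpG-poor promoters, whose median was 2.72 to 3.36 per line, and their midpoints lay past the window's end. The *KISS1* window was 98.7% unique, as the share of its 45-mers that occur once in the genome.

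*RXFP4* (chromosome 1, 155911429 to 155912878), a single-exon gene, differed from *KISS1* in the CpG number of its peaks. A peak centred on its coding sequence had scores of 262, 139, 123.2 and 144 in LAN-2, N206, IMR-32 and CHP-902R. In SK-N-AS, SJNB-1, SH-SY5Y and CLB-GA they were 97.6, 149, 143 and 93.8, so the unadjusted scores of the groups overlapped. These peaks held 3.02 to 4.31 CpG per 100 bp. *GPR182* (chromosome 12, 57388276 to 57392231) had scores from 98.5 in CLB-GA to 236 in SJNB-1, with a median of 175, for a peak that began 522 to 745 bp past the TSS. At the other end, *CTCFL* (chromosome 20, 56071022 to 56100708) had peaks of 5.47 to 8.29 CpG per 100 bp across its TSS in 7 lines, with scores from 51.1 in SK-N-AS to 154 in SJNB-1, whereas the IMR-32 peak lay more than 900 bp downstream.

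High scores with few CpG were also seen at *CD300H*, a leukocyte receptor gene, where 7 lines had a peak upstream of the TSS with scores of 127 to 390 (median 300) and a median of 1.19 CpG per 100 bp. Of the 490 to 656 peaks per line at CpG-poor promoters, 30 to 51 were in the top 5% of their list by score, and these held a median of 3.01 to 4.12 CpG per 100 bp. Between 1 (CLB-GA) and 9 (N206) of them held under 2 CpG per 100 bp. The median score percentile of peaks was 51.9 at CpG-poor and 56.4 at CpG-rich promoters, a difference of -4.50 ± 3.77, negative in all lines but SK-N-AS (exact permutation p = 0.0156, adjusted p = 0.0215). The difference was -0.694 (exact permutation p = 0.0781) among peaks with a score of at least 100. With CpG-poor windows limited to those at least 95% unique, it was -2.51 (exact permutation p = 0.164). Uniqueness was not computed for CpG-rich windows, which stayed unfiltered.

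The gene lists, given by symbol patterns, differed widely in the share of their CpG-poor promoters with a peak. Against 12.2% of all CpG-poor promoters, the 1328 in any list ranged by list from 0 to 27.9% (lists of 15 or more), and the 3231 in no list had a peak in 14.2% ± 1.596. The lists were compared by counts only, without a test, and several differ in their number of CpG. The median was 28 CpG in all CpG-poor windows. Of lists with a low share, olfactory receptors held 16 and cornified envelope genes 15. Leukocyte immunoglobulin-like and lectin receptors held 29 and pregnancy-specific and CEACAM genes 33. Of lists with a high share, hormones and neuropeptides held 39, and GPR and related receptors 24.5. Of all CpG-poor promoters, 39.96% had a peak in any line and 8.66% in at least 4 lines. The counts below are to be read against these shares.

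Sensory receptors carried few peaks. Of 390 olfactory receptors, which detect odorants in the nose, 39 (10%, against 39.96% of all CpG-poor promoters) had a peak in any line. The mean share per line was 2.37% ± 1.33 (median of 16 CpG per window). At 30 to 39 CpG the 32 olfactory receptors lay at 4.30% (lines 0 to 9.38%), below the 15.3% (12.4 to 20.2%) of 756 other genes with 2 or more exons, and the ranges did not overlap. Most olfactory receptors had fewer CpG, and there the ranges overlapped, with 3.03% (0 to 10.1%) of 99 against 8.85% (5.13 to 11.4%) at 20 to 29 CpG and 0.402% (0 to 1.61%) of 249 against 1.71% (0.521 to 2.81%) at 1 to 19 CpG. *OR13J1* (8 lines, scores 69.9 to 178) and *OR2AT4* (7 lines, 66.9 to 124) were the members with most lines, and *OR6B3*, with 58 CpG, had no peak. Of 25 taste receptors 6 (24%) had a peak in any line, *TAS2R4* in 3 lines.

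Genes of skin and hair were split. None of the 39 cornified envelope genes had a peak in any line (median of 15 CpG). Of 51 keratins 28 (54.9%, against 39.96% of all CpG-poor promoters) did, with a mean share of 19.4% ± 8.28. The keratin share ran from 5.88% in LAN-2 to 31.4% in CHP-902R. *KRT32* and *KRT85*, both hair keratins, had a peak in 6 lines each, while *KRT31*, with 45 CpG, had none. The 90 hair keratin-associated genes lay at 7.08% ± 5.24. Of these, 33 (36.7%, against 39.96% of all CpG-poor promoters) had a peak in any line and 1, *KRTAP5-9*, in 4 or more (8.66% of all). The 17 S100 genes, which encode small calcium-binding proteins, lay highest at 27.9% ± 5.21, and 13 (76.5%) had a peak in any line. *S100A13* had one in 7 lines and *S100A1* in 6, and the *S100A1* peaks also lie in the *S100A13* window, so the pair does not count as separate promoters.

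**Figure D5:**
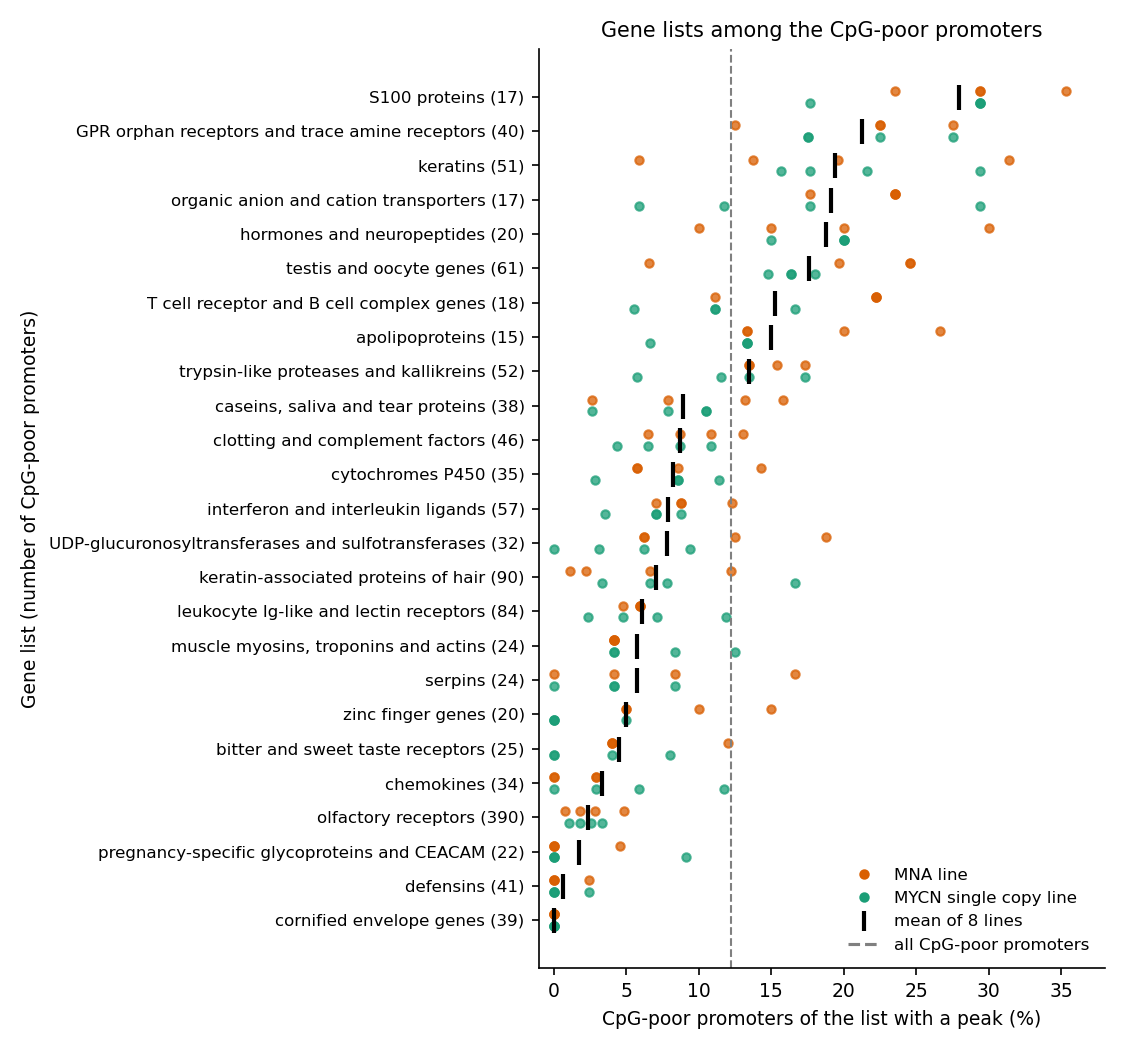
Share of CpG-poor promoters with a peak (x axis, %) for gene lists with 15 or more such promoters (y axis, number in brackets); dots are single lines by *MYCN* group, ticks the mean of 8 lines and the dashed line the mean of all CpG-poor promoters, 12.2%. S100 genes lie highest at 27.9% and cornified envelope genes at 0.

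Immune genes were mostly low. The share was 7.89% ± 2.48 for 57 interferon and interleukin genes, 6.10% ± 2.73 for 84 leukocyte immunoglobulin-like and lectin receptors and 3.31% ± 3.99 for 34 chemokines. Of 41 defensins, the antimicrobial peptide genes, 1 (2.44%, against 39.96% of all CpG-poor promoters) had a peak in any line, *DEFB135* in 2 lines. Of 13 MS4A genes 2 (15.4%) did, *MS4A3* and *MS4A8*, each in 1 line. The 18 genes of T and B cell receptor complexes lay at 15.3% ± 6.47. Among them *LCK*, the kinase of T cell receptor signalling, had a peak in 7 lines with scores of 50.2 to 106, *CD28* in 4 lines, and *CD79B*, with 53 CpG, in none.

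Liver and transport genes lay on both sides of the mean. The share was 8.21% ± 3.56 for 35 cytochromes P450, 7.81% ± 5.79 for 32 UDP glucuronosyltransferases and sulfotransferases, 8.70% ± 2.85 for 46 clotting and complement factors and 5.73% ± 5.43 for 24 serpins. None of 6 alcohol dehydrogenases had a peak (median of 9.5 CpG). *CYP2D6* and *CYP2D7* had a peak in 3 lines each, but their windows were 53.03 and 55.1% unique, so reads of these near copies cannot be told apart with certainty. Of 15 apolipoproteins (15% ± 5.91), *APOA5* had a peak in 7 lines with scores of 74.3 to 122.6, and *APOE*, with 67 CpG, had none. The 17 organic ion transporters lay at 19.1% ± 7.54, led by *SLC22A8*.

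Signalling and germline genes were above the mean. Of 40 GPR and related receptors 21 (52.5%, against 39.96% of all CpG-poor promoters) had a peak in any line (mean share 21.3% ± 5.18). *MRGPRD*, a receptor of sensory neurons, had one in 7 lines. Of 20 hormone and neuropeptide genes 11 (55%) had a peak in any line (mean share 18.8% ± 5.82). Pancreatic polypeptide (*PPY*) and placental growth hormone (*GH2*) had one in 5 lines each. Pituitary growth hormone (*GH1*), with 62 CpG, had none. Of 61 testis and oocyte genes 29 (47.5%) had a peak in any line (mean share 17.6% ± 5.80), *TSSK1B* in 8 and *TEX55* in 7. A peak in at least 4 lines was present at 9 of the 61, and at 8.66% of all CpG-poor promoters. Among 52 trypsin-like proteases (13.5% ± 3.71), *PRSS38* had a peak in 7 lines with scores of 94.8 to 270.

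The remaining lists were low. The share was 8.88% ± 4.65 for 38 genes of milk, saliva and tear proteins, with the amylase gene *AMY2B* in 7 lines. It was 5.73% ± 3.10 for 24 muscle genes, 5% ± 5.35 for 20 zinc finger genes, 5% ± 7.56 for 10 RNase A genes, 2.08% ± 5.89 for 6 globins and 1.70% ± 3.38 for 22 pregnancy-specific and CEACAM genes. Ribosomal protein and translation factor genes, listed for comparison, had 1 CpG-poor promoter among 141.

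By chromosome the mean share of CpG-poor promoters with a peak ran from 4.85% ± 1.74 on chromosome 4 to 17.6% ± 3.54 on chromosome 17 and 18.03% ± 4.07 on chromosome 22. The median number of CpG per window was 16.5 on chromosome 4, 38 on chromosome 17 and 43 on chromosome 22. Chromosome 19 departed from this order, with 8.87% ± 2.03 of 344 promoters at a median of 44 CpG. Its windows had the lowest median uniqueness of the autosomes, 93.1%. Chromosomes 16 and 15, at 94.1% and 94.6%, had shares of 14.9% ± 3.53 and 13.7% ± 4.88. The part of uniqueness in the chromosome 19 share was not tested. Over all chromosomes, the share was 12.4% ± 1.4998 for the 2921 promoters at least 95% unique, 12.8% ± 1.59 for the 1428 from 50 to below 95% and 5.12% ± 1.68 for the 210 below 50%.

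The study compared MNA with *MYCN* single copy lines, and CpG-poor promoters did not separate these groups beyond the spread between lines. The share with a peak was 12.6% ± 1.43 in the MNA and 11.8% ± 1.49 in the *MYCN* single copy lines (SD, n = 4 each), a difference of 0.883 percentage points (exact permutation p = 0.4, adjusted p = 0.44, smallest possible p 0.0286). Leaving out 1 line moved the difference to between 0.473 points (without CHP-902R) and 1.61 points (without SH-SY5Y), with 0.483 without CLB-GA, 0.495 without IMR-32 and 1.44 without N206, and with exact permutation p of 0.2 to 0.743 over the 8 omissions. With equally many peaks taken from each list the difference was -0.949 points (exact permutation p = 0.343). The ratio of the CpG-poor to the CpG-rich share differed by -0.0315 (exact permutation p = 0.686), and the share of all peaks of a list that lay at CpG-poor promoters was 0.616% in MNA and 0.684% in *MYCN* single copy lines (exact permutation p = 0.286, adjusted p = 0.349).

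A peak in every MNA and no *MYCN* single copy line was present at 0 CpG-poor promoters (background 0.0843%), and the reverse at 2 (background 0.0474%). With 4 lines per group, Fisher's exact test per promoter cannot give a p below 0.0286, which was the smallest seen. Adjusted over 18973 promoters, the test could therefore hardly pass for any promoter, and the smallest adjusted p was 1. Without adjustment, 2 CpG-poor promoters and 25 promoters in all had a p under 0.05. The 2 were *MIA* on chromosome 19 and the gene ENSG00000249590 on chromosome 22. At *MIA* (41277553 to 41283395, TSS at 41281426) the score was 82.2 for SK-N-AS, 51.1 for SJNB-1, 58.9 for SH-SY5Y and 68.6 for CLB-GA. At ENSG00000249590 they were 76.6, 50.3, 80.96 and 50.9 in the same order, upstream of the TSS. Several of these scores lay close to 50, the lowest score in the lists, and neither promoter separated the groups among peaks with a score of at least 100.

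CHP-902R is labelled as amplified, and the study's supplement gives it the same status. The study's main text names only the other 3 MNA lines in its comparison. Without CHP-902R, 5 CpG-poor promoters had a peak in each MNA line and in no *MYCN* single copy line (background 0.353%): *HSD11B1*, *SLC17A1*, *GK2*, *EPB42* and ENSG00000261582. *HSD11B1*, which makes cortisol from cortisone, had scores of 148 in LAN-2, 102 in IMR-32 and 79.5 in N206, for a peak of 1.399 to 2.005 CpG per 100 bp. *SLC17A1*, a phosphate and urate transporter of kidney, had scores of 117, 104 and 71.6 in these lines at 0.929 to 1.15 CpG per 100 bp. In the other direction there were 4 (background 0.0896%), *MIA* and ENSG00000249590 again, *RBP5* and *KRTAP5-9*, and the latter pair also had a peak in CHP-902R. These shares, 0.110% and 0.0877% of CpG-poor promoters, were below and close to the background.

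Of 20 genes from the study's text that had a window here, 3 had CpG-poor promoters. *CASP8*, the initiator caspase of death receptor signalling, is known in NB for loss of expression. It had scores of 97.3 in LAN-2, 86.1 in CLB-GA and 64.5 in SH-SY5Y and no peak in the other 5 lines, and the SH-SY5Y peak spanned the TSS, whereas those of LAN-2 and CLB-GA lay 631 to 1346 bp past it. *COL6A3*, a collagen VI chain, had a peak in 6 lines, the 4 MNA lines at 53.6 to 87.7 and CLB-GA and SJNB-1 at 93.5 and 83.6. *APOE* had a peak in 0 lines. By methylation-specific PCR, the study found *COL6A3* and *APOE* methylated in most of its tumors. It also cites earlier work that tied *CASP8* methylation almost only to MNA. Neither is the same measure as a peak in the window of a cell line, and the difference was not tested. No CpG-poor promoter lay within 1 Mb of *MYCN*.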

How the data were processed

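The 8 NB cell lines were each measured once by MBD-seq. According to the submitters' processing notes and the study's methods, reads were mapped with Bowtie 0.12.7 on GRCh37 and peaks called with MACS for each line, without pooling. Calling options and an input control are not given in the sources used here. The deposited lists give the position and score of each peak; the authors' score is minus 10 times log10 of the p-value, and the lowest, 50, corresponds to 1e-05.

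Windows were placed around the canonical TSS of 19229 autosomal protein-coding genes of GENCODE 44 in GRCh37 coordinates. Of these, 251 had no canonical transcript and 5 were left out for unknown bases or chromosome ends. An overlap of 1 bp with the window sufficed. Cover is the share of window bases under a peak. Scores were compared only as percentiles within a list. Sequences and counts of CpG come from the GRCh37 genome. Uniqueness is the share of 45-mers that occur once, on either strand. It was computed for CpG-poor windows only, so a limit on it left the other classes unfiltered. Of the CpG-poor windows, 64 (1.404%) overlap a window of another class.

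Differences within lines were tested with an exact sign-flip permutation test and differences between groups with an exact permutation of lines (two-sided), adjusted by Benjamini-Hochberg over 11 tests. Single promoters were tested with Fisher's exact test. P-values measure the spread between lines. The steps were run on simulated lists in which each planted promoter had a peak in every line of 1 group and none of the other. All 200 of 200 were recovered. This checks the code only, not the power to find such promoters in real lists. The alternatives used scores of 100 or more, equally many peaks per list (70816), the peak midpoint, shorter windows, ratio limits of 0.30 and 0.40, windows free of other classes, chromosome 2 left out, each line left out and, chosen after seeing the data, windows at least 95% unique. The CpG-poor promoters and gene lists were chosen with earlier results of these data known. Named genes are those with a peak in the most lines (up to 10), those that separate the groups (up to 10 per direction), those named in the study, and in each list the 2 with most lines and 1 without a peak with the largest number of CpG. *CD300H* is named in its list by this rule, and the sequences of *GPR182*, *RXFP4* and *LCE3A* were added after the values were seen. Python 3.11.15, numpy 2.4.6, scipy 1.17.1, pandas 2.3.3 and matplotlib 3.10.9 were used.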

Additional observations from a re-analysis of the deposited data

Results flagged for a closer look

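In 28 groups of 4 lines examined over 14 measures, 3 lines stood far from the other 3 of their group by Dixon's criterion, where chance alone gives about 1 in 20. Among the *MYCN* single copy lines, CLB-GA had a ratio of the CpG-poor to the CpG-rich share of 0.668, below the other 3 at 0.748 to 0.757. SH-SY5Y had the highest cover of CpG-poor promoters within 250 bp of the TSS, 4.58%, against 3.04 to 3.19% in the other 3. Among the MNA lines, IMR-32 had the fewest CpG per 100 bp in covered bases of CpG-poor promoters, 2.90, against 3.04 to 3.07.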

How the results depend on the processing

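Comparisons of the CpG classes were paired within each line. The labels do not pair MNA lines with *MYCN* single copy lines, so that comparison was unpaired. Of the values under alternatives, 249 kept their direction, their side of the threshold and, for counts, were within 1.5 times. With 500 bp on each side of the TSS, the CpG-poor minus CpG-rich share was 1.42 percentage points (exact permutation p = 0.0859), and 651 and 9 promoters had a peak in at least 2 and in all lines. With equally many peaks per list, the MNA minus *MYCN* single copy share was -0.949 points. With scores of at least 100, the score percentile difference was -0.694, no CpG-poor promoter (0) had a peak in every *MYCN* single copy line alone, and 520, 187 and 1 had a peak in at least 1, at least 2 and all lines. A peak in all lines was present at 10 promoters by the midpoint, 9 with the window ending at 500 bp and 26 with a ratio limit of 0.40. With the 2921 CpG-poor windows at least 95% unique, the score difference from the unfiltered CpG-rich windows was -2.51. Of these 2921, 0 separated the groups with peaks in *MYCN* single copy lines. A peak in at least 1, at least 2 and all lines was present at 1151, 693 and 11 of them. Leaving out each line in turn gave 1 (SJNB-1 or SK-N-AS left out) to 9 (IMR-32) separating promoters with peaks in MNA lines, with 2 to 7 for the other lines. It gave 3 (IMR-32) to 7 (SJNB-1) with peaks in *MYCN* single copy lines, and 17 (SH-SY5Y) to 29 (SK-N-AS) with a peak in all remaining lines, with 26 when LAN-2 or SJNB-1 was left out. The share over all promoters was computed only without CHP-902R. There the separating CpG-poor promoters made up 0.110% (background 0.353%) and 0.0877% (background 0.0896%). The separating counts for the other omissions have no background, so they show nothing particular to CpG-poor promoters. The MNA minus *MYCN* single copy difference in the ratio of CpG-poor to CpG-rich shares was -0.0945 to 0.00839, the last without IMR-32 (exact permutation p = 0.971). Fewer lines or windows enter these counts by construction; the cause of the other changes was not tested. Read depth is not in the lists, so a missing peak is not evidence of an unmethylated promoter.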
